A study of Mus musculus with 18 samples.

Results

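The mucins described here are the 6 rows of the count table with the symbols Muc1, Muc2, Muc3, Muc4, Muc13 and Muc20, out of 45777 genes. They were chosen by symbol, as a secreted mucin (Muc2) and 5 membrane mucins. The colon was taken from male C57BL/6J mice aged 8 weeks that were germ-free, that is, kept in sterile isolators with no microbes, and its messenger RNA was sequenced. There were 18 libraries, 3 biological replicates (A, B and C) in each of 6 groups. Wild-type mice (WT), mice labelled LAO1KO (Lao1-/-) and mice labelled DKO (Lao1-/- Il4i1-/-) each received sterile water or 2.5% dextran sulfate sodium (DSS) in the drinking water for 24 hours. Both deleted genes code for oxidases of L-amino acids, and DSS is a sulfated polysaccharide that injures the colonic epithelium. All groups share the germ-free state, so mucin levels set by bacteria are not sampled. How the deletions were made is not given in the sources used here.

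Mucins are proteins with long stretches rich in serine, threonine and proline, on which cells build dense O-linked sugar chains. Muc2 is secreted by goblet cells and polymerises into the mucus gel of the colon. The membrane mucins span the apical membrane and form the glycocalyx, the sugar coat of the surface: Muc3, Muc13 and Muc4 on enterocytes and goblet cells, and Muc1 on many epithelia. Muc20 is a small membrane mucin best known from kidney, where it binds the receptor Met.

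The serine, threonine and proline codons typical of mucins are shown in short repeat units of 3 members. Muc4 also holds repeats, in a longer unit that is not printed. Over the coding sequence of GENCODE M21 these codons made up 44.8% of Muc4, 44.1% of Muc1, 43.5% of Muc20 and 38.0% of Muc13, against a median of 18.8% over 21673 coding genes. Muc13 carries the same 81-base unit 3 times in a row, of which 1 copy is printed, with serine, threonine and proline codons in capitals.
Muc13 unit: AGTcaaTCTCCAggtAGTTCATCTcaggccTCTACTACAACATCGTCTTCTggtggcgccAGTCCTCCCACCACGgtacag
Of its 27 codons 18 are serine, threonine or proline. In Muc1 the unit is 60 bases, and consecutive copies differ from each other.
Muc1 unit 1: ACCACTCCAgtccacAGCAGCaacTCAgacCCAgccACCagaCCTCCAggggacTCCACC
Muc1 unit 2: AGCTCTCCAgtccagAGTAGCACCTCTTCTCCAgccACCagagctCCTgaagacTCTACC
Muc1 unit 3: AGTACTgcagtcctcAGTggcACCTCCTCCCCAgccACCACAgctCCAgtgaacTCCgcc
Units 1 and 2 share 46 of 60 bases, and units 2 and 3 share 45. In Muc20 the unit is 72 bases and less regular, with 46 bases shared by units 1 and 2 and 49 by units 2 and 3.
Muc20 unit 1: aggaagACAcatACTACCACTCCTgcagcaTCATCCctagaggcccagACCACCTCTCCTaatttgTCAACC
Muc20 unit 2: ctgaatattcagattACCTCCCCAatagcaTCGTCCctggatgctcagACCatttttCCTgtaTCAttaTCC
Muc20 unit 3: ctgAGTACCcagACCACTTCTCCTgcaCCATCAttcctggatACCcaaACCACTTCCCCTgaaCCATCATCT
The coding models of Muc2 (28.0%) and Muc3 (17.5%) are incomplete in GENCODE M21. That annotation tags Muc2 as a fragmented locus, and its Muc3 model ends at 137149322, while the RefSeq gene runs on to 137166048. No length-scaled level is therefore given for these 2 genes.

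On GRCm38 the members lie on 4 chromosomes. By RefSeq, Muc1 is at chr3:89229056-89233381 (plus strand), Muc2 at chr7:141690340-141754691 (plus) and Muc3 at chr5:137134924-137166048 (minus). On chromosome 16 are Muc4 at chr16:32735886-32782391 (plus), Muc20 at chr16:32777419-32797435 (minus) and Muc13 at chr16:33794037-33819929 (plus). Muc4 and Muc20 overlap tail to tail by 4973 bp on opposite strands. The libraries were made with a stranded kit per the labels, but whether the counting used strand is not stated, so reads in that overlap are uncertain.

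Libraries held 26003174 to 36553193 counts, and the 6 mucins together took 0.857 to 1.24% of them in the water libraries and 0.386 to 0.929% in the DSS libraries. Values below are CPM, counts as a share of library size after scaling with TMM factors, and fold changes are log2 with a standard error. Every adjusted p comes from edgeR's quasi-likelihood test over 18848 genes with Benjamini-Hochberg adjustment, with a threshold of 0.05. Of the members 5 passed the filter on low counts, and Muc20 did not. Transcripts of the 13 mitochondrially encoded mRNAs took 6.89 to 20.7% of counts under water and 14.3 to 44.9% under DSS, with the highest share in WT DSS C. The clock genes Dbp (6.02 to 35.5 CPM under water, 49.2 to 131 under DSS) and Arntl (26.0 to 51.9 and 8.64 to 23.0) did not overlap between treatments. No time of day is given, so a difference in collection time cannot be told apart from DSS. Il4i1 had 0 counts in all 6 DKO libraries and 0 to 52 elsewhere. Lao1 had 0 to 4 counts in WT and 0 to 10 in the LAO1KO and DKO libraries, too few to check those labels, so genotype names below are those of the labels. In bulk tissue, fewer cells of a type and less RNA per cell cannot be told apart.

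**Figure D1:**
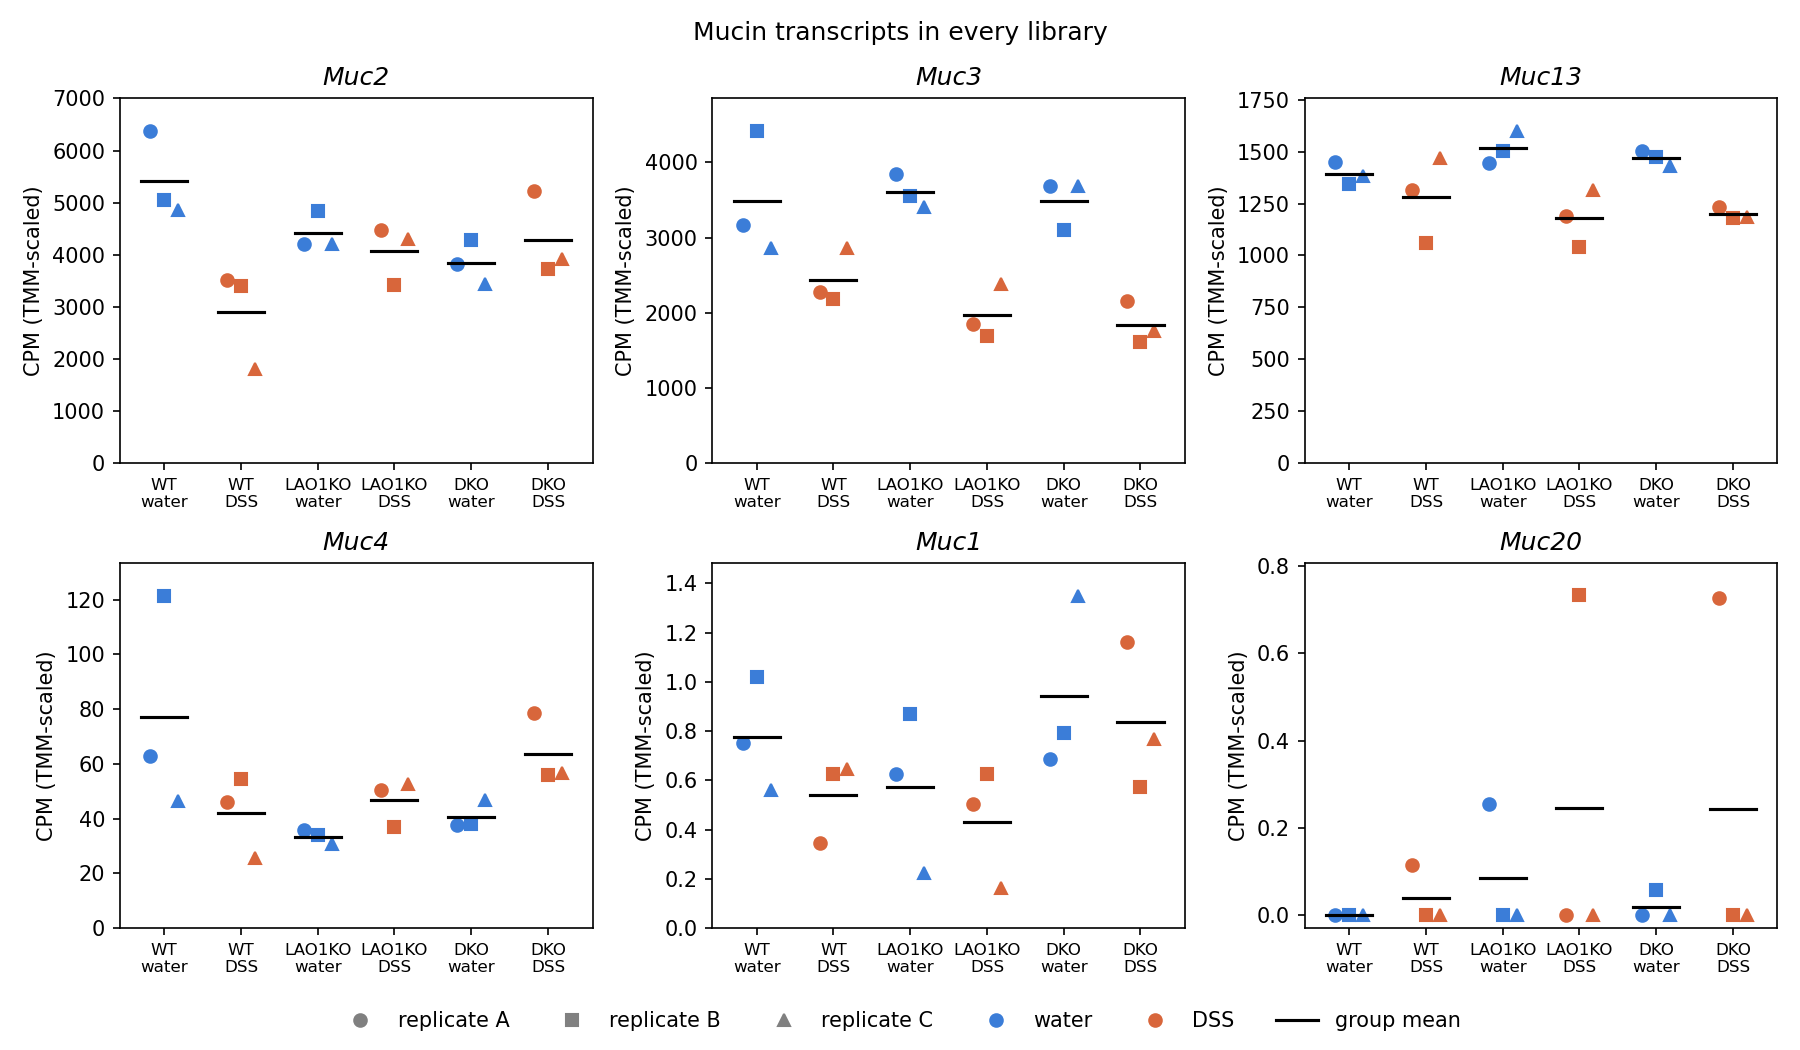
CPM (TMM-scaled, linear axis, a panel per mucin) in each of the 18 libraries, with water in blue, DSS in orange, symbols for replicates A, B and C, and a line at each group mean. Muc3 is lower in the DSS libraries of LAO1KO and DKO without overlap, and Muc2 is lower under DSS in WT, with WT DSS C lowest at 1809.7 CPM.

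The membrane mucin Muc3 and, by less, Muc13 were lower in the DSS libraries when averaged over the 3 genotypes. Muc2, Muc4 and Muc1 did not pass the test in that average. The 2 called members of 5 tested both fell, in a comparison in which 15.9% of all tested genes were called. The median over the 5 members was -0.29, beside 0.03 over all tested genes.

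In the mean of genotypes Muc3 had the largest difference of the 5 tested members. In WT alone Muc2 (-0.90), Muc4 (-0.87) and, by little, Muc1 (-0.53) had larger estimates than Muc3 (-0.51). In WT water it stood at 3171 CPM in replicate A, 4416 in B and 2859.7 in C, and in WT DSS at 2269, 2181 and 2868. In LAO1KO it stood at 3848, 3552 and 3410.05 CPM under water and at 1846, 1694 and 2383 under DSS. In DKO it stood at 3687, 3099 and 3686 CPM under water and at 2155, 1608 and 1753 under DSS. Every DSS library was below every water library of its genotype in LAO1KO and DKO, and in WT only DSS replicate C reached above the lowest water library, water replicate C. Averaged over genotypes, Muc3 fell by 0.77 on the log2 scale (SE 0.11, adjusted p = 6.34e-04), to 0.587 of its water level. Leaving out any 1 of the 18 libraries kept the call (-0.83 to -0.70), as did each of 9 alternative fits (-0.77 to -0.68).

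Within single genotypes the Muc3 difference had the same sign and did not pass edgeR's test. The WT estimate was -0.51 ± 0.20 (SE, adjusted p = 0.0932), beside -0.87 ± 0.20 (0.0747) in LAO1KO and -0.92 ± 0.20 (0.125) in DKO. Few genes passed in the knockouts: 12.9% of tested genes were called in WT, 0.196% in LAO1KO and 0.0159% in DKO. In LAO1KO and DKO edgeR called 0 of 5 members, with 2 at an unadjusted p under 0.05 in each. DESeq2 called Muc3 in each of the 3 genotypes, at adjusted p = 0.0216, 3.17e-04 and 3.26e-04, and Muc13 in LAO1KO (0.0403). Limma voom called Muc3 in all 3 as well. Muc13 in LAO1KO was called in 2 of 9 alternative fits. The shares of all tested genes called by DESeq2 and limma voom are not given here. Their member calls, here and below, therefore stand without a background. The differences between genotypes in the Muc3 response were -0.35 ± 0.28 (SE, adjusted p = 0.553) for LAO1KO against WT and -0.41 ± 0.28 (0.502) for DKO against WT.

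Muc3a, a neighbour of Muc3 on the same strand of chromosome 5, with a gap of 42757 bp, is also a membrane mucin gene. It had 229 to 418 CPM under water and 245 to 433 under DSS, and the ranges overlapped. Its mean DSS difference was 0.05 ± 0.10 (SE, adjusted p = 0.763). The GENCODE models of Muc3 and of Muc3a shared no 100-base stretch with each other or with another gene. That search covered shared stretches of 100 bases only, and the Muc3 model is incomplete. It therefore cannot decide whether reads of Muc3 and Muc3a were told apart in the counting. Within a library, Muc3 had 8.07 to 19.3 times the counts of Muc3a under water and 3.91 to 9.71 times under DSS. GENCODE tags the Muc3a model as a reference genome error.

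Muc13, a small membrane mucin with EGF-like domains that is abundant on colonic enterocytes, varied least. In WT it stood at 1449, 1346 and 1381 CPM under water and at 1315, 1061 and 1469.8 under DSS, which overlap. In LAO1KO it stood at 1445, 1505 and 1598 CPM under water and at 1189.7, 1042 and 1314 under DSS. In DKO it stood at 1502, 1475 and 1431 CPM under water and at 1231, 1182 and 1186 under DSS. Both knockouts separated without overlap, and in WT the highest of all 6 libraries was DSS replicate C. Averaged over genotypes Muc13 fell by 0.26 (SE 0.08, adjusted p = 0.0419), to 0.837 of its water level. The call is marginal: it held in 4 of 18 fits without 1 library (-0.30 to -0.23, adjusted p from 0.0151 to 0.0798) and in 7 of 9 alternatives.

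Over the 5 tested members, 1 in WT (Muc2), 2 in LAO1KO (Muc3 and Muc13) and 2 in DKO (Muc3 and Muc13) had every DSS library below every water library. The same held for 15.8% of all tested genes in WT, 10.1% in LAO1KO and 10.4% in DKO. Across the 18 libraries the log2 levels of Muc3 and Muc13 correlated with r = 0.82, a description over libraries that share the treatment groups.

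Because Muc3 and Muc13 fell together, the 250 bases before their RefSeq start sites (GRCm38.p6) are shown, with matches to 5 searched motifs in capitals. Both strands were searched. The E-box was searched as the letters CACGTG, and the motif of the CDX homeodomain factors was searched as TTTATG. For the liver and gut factor HNF1 the letters searched were GTTAAT, while for the nuclear receptor HNF4 they were CAAAGT. The TATA box was searched as the letters TATAAA.
Muc3, chr5:137166047-137166296, minus strand: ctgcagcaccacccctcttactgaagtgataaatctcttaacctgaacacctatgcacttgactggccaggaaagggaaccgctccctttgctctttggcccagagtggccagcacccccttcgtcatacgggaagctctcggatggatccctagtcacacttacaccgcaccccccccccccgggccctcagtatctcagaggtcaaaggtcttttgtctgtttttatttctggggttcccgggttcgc
Muc13, chr16:33793787-33794036, plus strand: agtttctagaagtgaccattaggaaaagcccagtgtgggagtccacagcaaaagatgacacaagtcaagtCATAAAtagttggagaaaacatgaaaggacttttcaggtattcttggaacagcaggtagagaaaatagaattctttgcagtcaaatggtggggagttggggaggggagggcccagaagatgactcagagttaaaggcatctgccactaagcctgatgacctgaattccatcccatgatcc
The Muc3 stretch holds none of the 5 searched letter strings, and variants of these strings were not searched. It does hold CAAAGG, which differs from the HNF4 string only in its last letter. The absence of a match is therefore not read as a difference between the Muc3 and Muc13 promoters. The first Muc13 start has a CDX match on the other strand at position -180, and a second annotated start has an HNF1 match at -61 and an HNF4 match on the other strand at -183. In 32851 promoter windows of 300 bases, the E-box was found in 7.15%, the CDX motif in 11.85%, the HNF1 motif in 7.10%, the HNF4 motif in 14.4% and the TATA box in 13.6%. The letters TATAAA were found in 3 other members, at -31 in Muc1, -36 in Muc4 and -174 in Muc2. These are letter matches and not binding sites.

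Muc2, the gel-forming mucin, fell under DSS in WT. It stood there at 6371, 5042 and 4858 CPM under water and at 3519, 3393 and 1809.7 under DSS. In LAO1KO it stood at 4209, 4833 and 4204 CPM under water and at 4483, 3420.3 and 4308 under DSS. In DKO it stood at 3818, 4287 and 3438 CPM under water and at 5228, 3721 and 3921 under DSS. WT separated without overlap, and both knockouts overlapped. The WT difference was -0.90 ± 0.23 (SE, adjusted p = 0.0197), the LAO1KO difference -0.12 ± 0.23 (0.833) and the DKO difference 0.16 ± 0.23 (0.877). Averaged over genotypes it was -0.29 ± 0.13 (0.148), and of 9 alternatives limma voom alone called it (-0.29, 0.0407).

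The WT call of Muc2 rests on single libraries. Without WT DSS C, the library with 44.9% mitochondrial mRNA, it was -0.65 (edgeR adjusted p = 0.0729), and without WT water A, the library with the most Muc2, -0.76 (0.0825). It held in the other 4 of 6 such fits, and with the mitochondrial mRNAs left out it was -0.90 (0.0166). The 10 goblet cell markers, all detected in WT, did not move one way. Their sum, to which abundant genes give most, was 5564 to 6661 CPM under water and 7640.2 to 10147 under DSS. Their mean log2 CPM, in which each gene weighs the same, was 7.76 to 8.12 under water and 7.33 to 8.11 under DSS, lowest in WT DSS C. In WT 1 of the 10 rose (Tff3) and 2 fell (Agr2 and Spdef), with a median of -0.30. The part of that library's RNA in the Muc2 result was not tested.

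Differences between genotypes in the Muc2 response did not pass. The interaction was 0.78 ± 0.33 (SE, edgeR adjusted p = 0.259) for LAO1KO against WT and 1.06 ± 0.33 (0.165) for DKO against WT. Under water alone Muc2 differed from WT by -0.30 ± 0.23 (0.583) in LAO1KO and -0.50 ± 0.23 (0.285) in DKO. Under DSS it differed by 0.49 ± 0.23 (0.823) and 0.56 ± 0.23 (0.475). These comparisons share the WT libraries, so a high WT water group and a low WT DSS group enter several of them.

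Within a library, the ratio of Muc2 counts to the summed counts of the 5 membrane members needs no scaling between libraries. It was 1.12 ± 0.252 (SD, n = 3) in WT water, 0.858 ± 0.0823 in LAO1KO water and 0.775 ± 0.137 in DKO water. The DSS libraries had 0.804 ± 0.339 (WT), 1.28 ± 0.157 (LAO1KO) and 1.37 ± 0.116 (DKO). In both knockouts the DSS libraries lay above the water libraries, while in WT the groups overlapped. Muc2 over Muc3 alone was 1.23 ± 0.133 under water and 2.09 ± 0.315 under DSS in LAO1KO, and 1.12 ± 0.236 and 2.33 ± 0.0950 in DKO. In WT it was 1.62 ± 0.440 and 1.25 ± 0.532. These ratios are descriptions without a test.

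**Figure D2:**
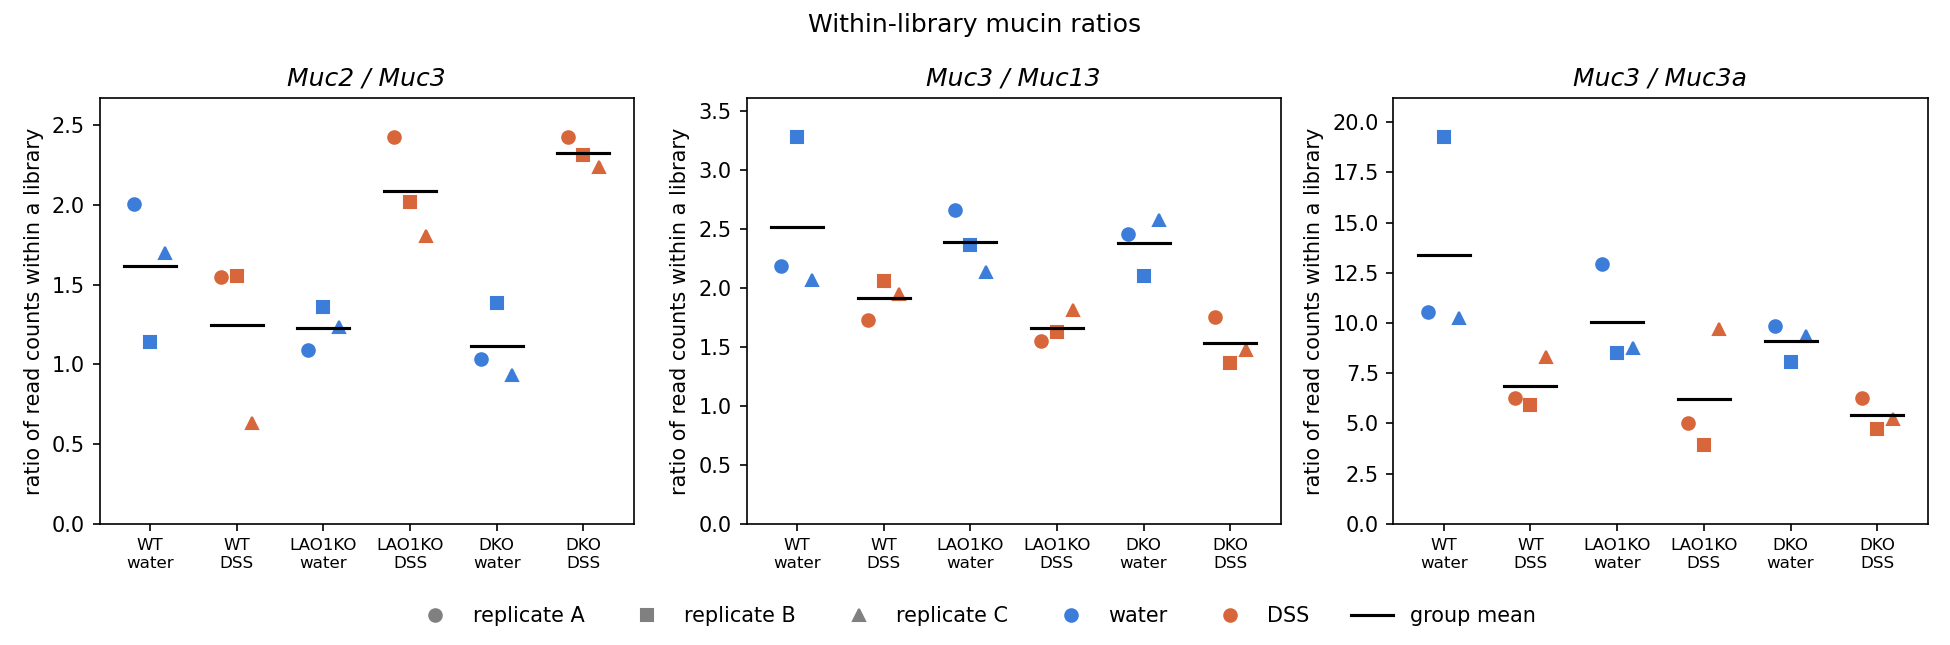
Ratios of read counts within each library (linear axes from 0): Muc2 to Muc3, Muc3 to Muc13 and Muc3 to Muc3a, with water in blue, DSS in orange and a line at each group mean. Muc2 to Muc3 is higher under DSS in LAO1KO and DKO without overlap, and the mean of Muc3 to Muc3a falls from 9.08 to 5.40 in DKO.

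Muc4, a large membrane mucin that pairs with the receptor ErbB2, was scarce and uneven. In WT it stood at 63.0, 121 and 46.6 CPM under water and at 46.0, 54.5 and 25.6 under DSS. In LAO1KO it stood at 35.7, 33.8 and 30.7 CPM under water and at 50.4, 36.9 and 52.6 under DSS. In DKO it stood at 37.6, 37.9 and 46.7 CPM under water and at 78.5, 55.8 and 56.7 under DSS. Both knockouts were higher under DSS without overlap, and WT overlapped. Every DSS library lay above every water library for 9.3% of all tested genes in LAO1KO, 8.39% in DKO and 18% in WT, and among the 5 members for Muc4 alone in each knockout and for 0 in WT. The edgeR differences were -0.87 ± 0.30 (SE, adjusted p = 0.0689) in WT, 0.48 ± 0.30 (0.458) in LAO1KO and 0.64 ± 0.30 (0.519) in DKO. No Muc4 difference passed by edgeR, while DESeq2 called the WT difference (-0.89, 0.0212) and limma voom the LAO1KO difference (0.63, 0.0161).

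The WT values of Muc4 turn on water replicate B, at 121 CPM. Without it the DSS difference in WT was -0.38, from -0.87. Under water Muc4 differed from WT by -1.20 ± 0.30 (SE, edgeR adjusted p = 0.178) in LAO1KO and by -0.92 ± 0.30 (0.150) in DKO, and without that library by -0.71 and -0.45. The interactions were 1.35 ± 0.43 (0.170) for LAO1KO and 1.51 ± 0.43 (0.137) for DKO, and 0.85 and 1.03 without it. The same library held 337 of the 463 counts of Muc6, a gel-forming mucin of stomach glands.

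Muc1, which binds beta-catenin and Src through its cytoplasmic tail, was near the limit of detection with 4 to 40 counts a library. It stood at 0.752, 1.02 and 0.559 CPM in WT water and at 0.345, 0.627 and 0.647 in WT DSS. In LAO1KO it stood at 0.624, 0.871 and 0.222 CPM under water and at 0.504, 0.624 and 0.164 under DSS. In DKO it stood at 0.685, 0.792 and 1.35 CPM under water and at 1.16, 0.574 and 0.769 under DSS. The groups overlapped in every genotype. The mean DSS difference was -0.37 ± 0.30 (SE, edgeR adjusted p = 0.420).

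Muc20 had 59 counts in all. It had 25 counts in DKO DSS A, 20 in LAO1KO DSS B, 9 in LAO1KO water A, 3 in WT DSS A, 2 in DKO water B and 0 in the other 13 libraries. A count of 0 allows up to 3 counts, or 0.0792 to 0.176 CPM by library. These limits cover counting error only. Counts of 9 or more appeared in only 1 library of a group, and no comparison was made.

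Levels could be set in order per kilobase of exon for 4 members. Over the 9 water libraries Muc13 had 480.3 ± 24.3 CPM per kb (SD), Muc4 4.28 ± 2.41, Muc1 0.326 ± 0.133 and Muc20 0.00861 ± 0.0211. Their ranges did not overlap under water (443 to 526, 2.61 to 10.3, 0.0946 to 0.575 and 0 to 0.0634 CPM per kb). Under DSS the order of the means was the same, and Muc1 (0.0697 to 0.495) and Muc20 (0 to 0.182) overlapped.

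**Figure D3:**
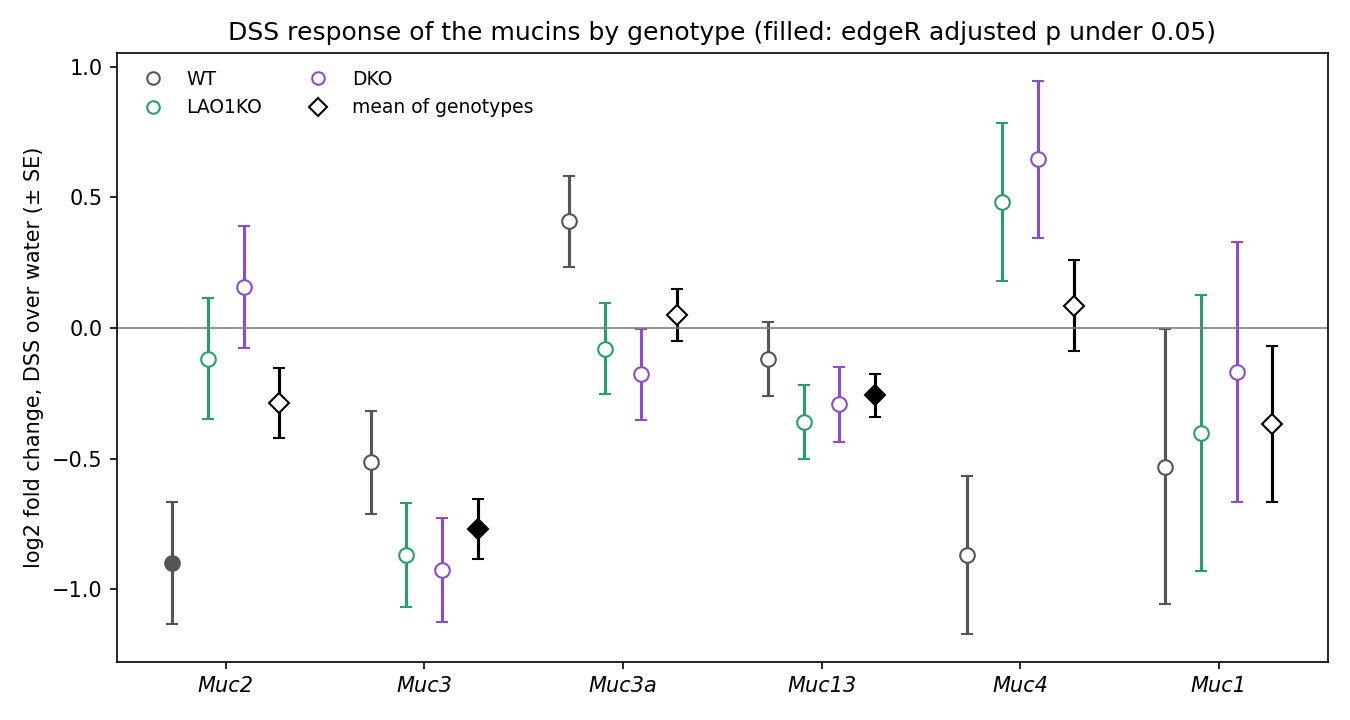
Log2 fold change of DSS over water (± SE) for the 5 tested mucins and Muc3a in WT, LAO1KO, DKO and the mean of the 3 genotypes, with filled symbols where the edgeR adjusted p was under 0.05. Muc3 is negative in every genotype, while Muc2 and Muc4 are most negative in WT (-0.90 and -0.87) and lie between -0.12 and 0.64 in the knockouts.

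The genotypes alone called no member. LAO1KO against WT called 0 of 5 under water, under DSS and averaged over treatments, where 0.0531%, 0.0849% and 0.133% of all tested genes were called by edgeR. DKO against WT called 0 of 5 in the same 3 comparisons, where 0.621%, 0.255% and 0.562% of genes were called. DKO against LAO1KO called 0 of 5, where 0.239% of genes were called. At an unadjusted p under 0.05 the counts were 1, 0 and 1 for LAO1KO, 2, 1 and 0 for DKO against WT, and 1 for DKO against LAO1KO. DESeq2 called Muc4 under water in LAO1KO (-1.21, adjusted p = 0.0100) and in DKO (-0.94, 0.0418), and limma voom called it in LAO1KO (-0.99, 0.0242). Neither tool called a member in the other 5 comparisons.

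Of the 2 interactions edgeR called 0 of 5 members, where 0% of tested genes were called for LAO1KO and 0.0584% for DKO. In both, 2 members (Muc2 and Muc4) had an unadjusted p under 0.05. DESeq2 called Muc4 for LAO1KO (1.36, adjusted p = 0.0475), and Muc4 (1.54, 0.0198) and Muc2 (1.08, 0.0247) for DKO. Limma voom called Muc2 (0.95, 0.0254) and Muc4 (1.17, 0.0220) for LAO1KO and none for DKO. The interaction calls therefore depend on the tool.

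Some transcripts listed for the Muc2 gel and goblet cell secretion were higher under DSS. This list and the related lists below were chosen with earlier results of these data known. Their counts beside the shares of all genes are therefore descriptions and not tests. Of 23 listed genes of the Muc2 gel and goblet cell secretion, 8 rose and 0 fell in the mean of genotypes, where 6.72% of all tested genes rose and 9.18% fell. The median of the list was 0.02 beside 0.03 over all genes. They were Fer1l6 (0.67 ± 0.08 SE, edgeR adjusted p = 1.29e-04), Bcas1 (0.50), Sytl2, a granule docking protein (0.41), the trefoil peptide Tff3 (0.80), the IgG Fc binding protein Fcgbp (0.77), the metalloprotease Clca1 (0.74), the lectin Zg16 (0.66) and the antimicrobial ribonuclease Ang4 (1.67). As many rose by DESeq2, by limma voom (which called 2 lower) and without WT water B, WT DSS C or both, and 7 rose with libraries scaled to the pan-epithelial list. In WT, Tff3 rose by 1.08 ± 0.25 (0.0115) and Agr2, a disulfide isomerase needed to fold Muc2, fell by 0.93 ± 0.29 (0.0442). Fer1l6 also rose in LAO1KO (0.73, 0.0351) and in DKO (1.24, 5.84e-04), with an interaction of 1.22 ± 0.19 (0.0328) for DKO against WT. Its mean under water was 46.2 CPM in WT and 29.9 in DKO, a called difference (-0.63, edgeR adjusted p = 0.0369). Under DSS the means were 47.0 CPM in WT and 70.8 in DKO.

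A part of the enzymes and transporters that build the sugar chains fell. Of 40 tested genes of mucin-type O-glycosylation, 0 rose and 14 fell in the mean of genotypes, with a median of -0.23 beside 0.03 over all genes, and the others did not pass. Of all tested genes 9.18% fell in that comparison. They included Galnt1, which adds the first sugar (-0.38 ± 0.07 SE, edgeR adjusted p = 0.00185), B4galnt2 (-0.64), the sulfate transporter Slc26a2 (-0.94), the UDP-galactose transporter Slc35a2 (-0.41), B4galnt3 (-0.45) and Gcnt3, a core branching enzyme (-0.35). With libraries scaled to the pan-epithelial list 3 were called lower, and over all genes 365 were called. In WT 12 fell, where 6.59% of all tested genes fell, among them Galnt2 (-0.61), B3galt5 (-2.31) and B3gnt7 (-3.33), while the number called lower was 6 without WT water B, 5 without WT DSS C and 1 without both.

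Some partners of the membrane mucins fell. Of 22 tested genes 1 rose and 5 fell in the mean of genotypes, beside 6.72% and 9.18% of all tested genes, with a median of -0.18 beside 0.03. The kinase Src (-0.53 ± 0.08 SE, edgeR adjusted p = 6.34e-04), beta-catenin Ctnnb1 (-0.55), the membrane linker ezrin Ezr (-0.67), the receptor Met (-0.39) and the sheddase Adam17 (-0.22) fell, and the scaffold Pdzk1 rose (2.69 ± 0.88, 0.0499) on 74 counts over all libraries, with 0 in DKO water. The Pdzk1 call was lost without WT water B, without WT DSS C and by DESeq2. With libraries scaled to the pan-epithelial list 0 rose and 2 fell, DESeq2 called 8 lower and limma voom 12.

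Of 20 transcription factors of secretory and absorptive epithelium, 1 rose and 4 fell in the mean of genotypes, beside 6.72% and 9.18% of all tested genes, with a median of -0.17 beside 0.03. Hes1, a Notch target, rose (0.36 ± 0.08 SE, edgeR adjusted p = 0.00832). The goblet cell factors Klf4 (-0.64) and Spdef (-0.41), the secretory factor Bhlha15 (-1.07) and Foxa1 (-0.17) fell. The number called lower was 2 without WT DSS C, 1 without WT water B, 1 with pan-epithelial scaling, 8 by DESeq2 and 9 by limma voom. Of 18 other mucin and mucin-like genes 14 were in the table and 7 were tested, with 0 called in the mean of genotypes by edgeR and Podxl lower in WT (-0.99 ± 0.32, 0.0490). Muc5ac and Muc5b, gel-forming mucins of stomach and airway, had 9 and 2 counts over all 18 libraries.

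**Figure D4:**
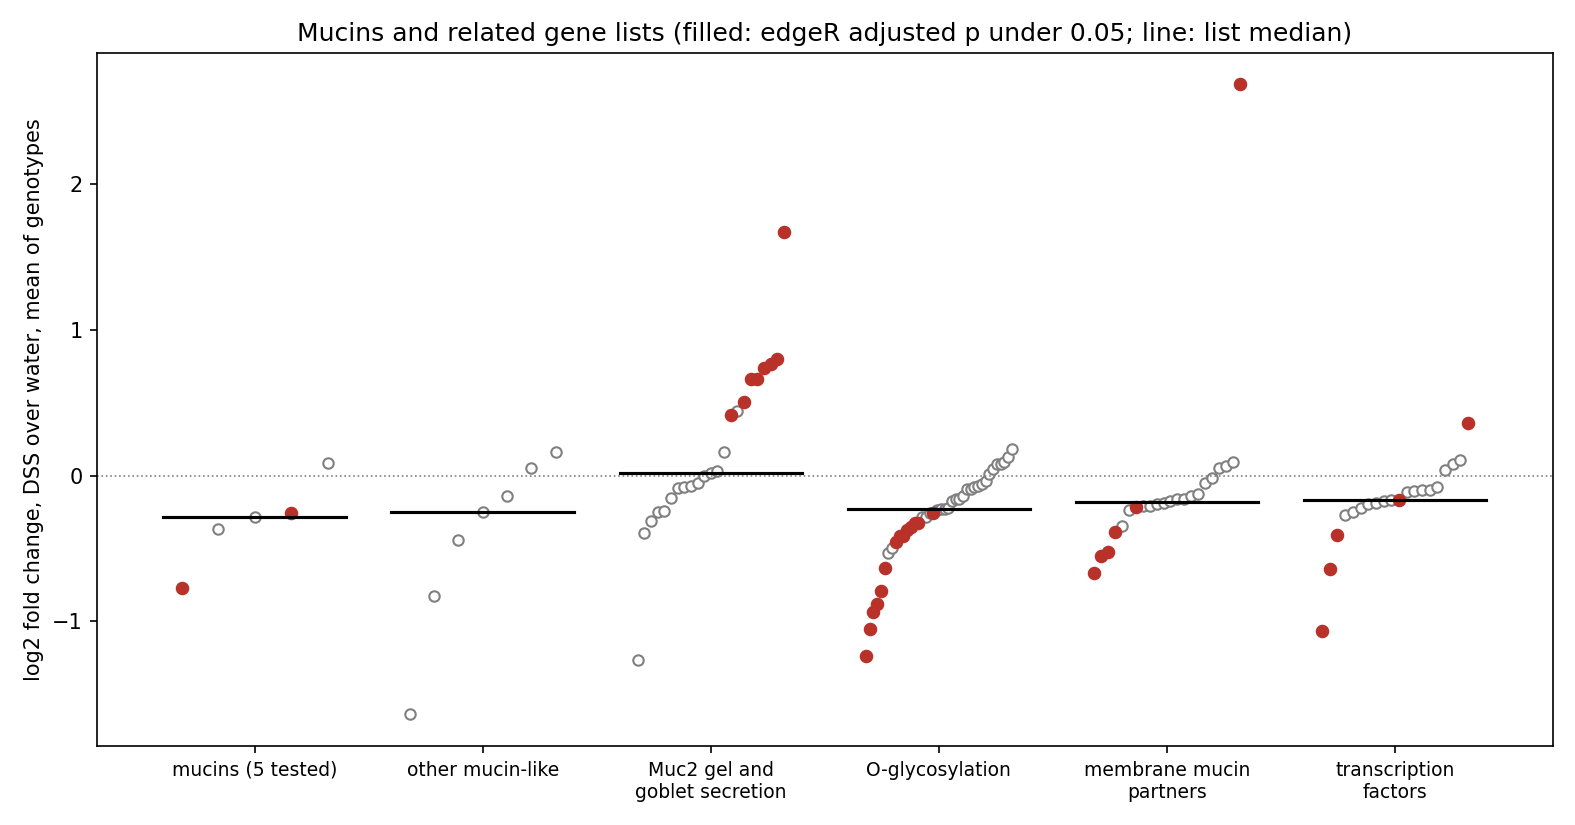
Log2 fold change of DSS over water, mean of genotypes, for every tested gene of the mucins and of 5 gene lists, sorted within each list. Filled points have an edgeR adjusted p under 0.05, and lines are list medians. The secretion list holds 8 called genes, all above 0, and the O-glycosylation list 14, all below 0.

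Cell type markers moved as follows beside these groups, with calls from the mean of genotypes unless a genotype is named. The 10 pan-epithelial markers summed to 11915 to 25394 CPM under water and 10808 to 18836 under DSS, with Cdh1 lower (-0.30 ± 0.09 SE, edgeR adjusted p = 0.0404). Of 10 goblet markers Tff3, Fcgbp, Clca1 and Zg16 rose and Spdef fell. Of 10 absorptive colonocyte markers Cyp2c55 (-0.76), Ceacam20 (-0.47) and Krt20 (-0.80) fell, and all 10 were detected in every group. Their sum was 10847 to 20147 CPM under water and 10236 to 19923 under DSS, highest under DSS in WT DSS C. The genotypes differed in direction. In WT the sum was 11551 to 12464 CPM under water and 12672 to 19923 under DSS. In DKO it was 12257 to 16937 and 10236 to 12077.5, and in LAO1KO 10847 to 20147 and 10539 to 13590. The mean log2 CPM of this list overlapped in WT, at 7.95 to 9.04 under water and 8.19 to 9.40 under DSS. Slc20a1, of the same list, was called higher in WT by edgeR. Among the neuron and glia markers Tubb3 (0.89), Prph (0.76), Uchl1 (0.80) and Snap25 (0.78) rose, and the sum over that list was 72.1 to 172 CPM under water and 126 to 279 under DSS. Their part in the mucin results was not tested.

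Scaling to the 10 epithelial markers, in which the median over all genes moved to 0.11 in the mean of genotypes, left Muc3 called at -0.68 (edgeR adjusted p = 0.00227) and Muc13 uncalled at -0.19 (0.439). In WT it left Muc2 uncalled at -0.82 (0.118). Muc3 was thus lower relative to the epithelial markers as well as to all genes.

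Neighbouring genes were read for comparison. Between Muc20 and Muc13 lie 996602 bp, with 17 genes in the table and 13 tested. Of these 0 rose and 1 fell, the sorting nexin Snx4 (-0.28 ± 0.09 SE, edgeR adjusted p = 0.0351). The RNAs that overlap Muc13 (Gm15658, -0.20, 0.609) and Muc3 (Gm40348, 0.10, 0.767) did not pass, and Gm34825, inside Muc4, had 0 counts.

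The genes with the most similar levels to each member over the 18 libraries were ranked by Pearson correlation of log2 CPM, as a description over libraries that share groups and depth. Muc3 was most like Srxn1 (r = 0.97), the iron oxidase Heph (0.96) and the apical trafficking motor Myo5b (0.96). Next were the microvillus protein Eps8 (0.96) and Cdv3 (0.96). All 5 fell in the mean of genotypes (edgeR), by 0.35 to 0.58, where 9.18% of all tested genes fell. They were chosen for their likeness to Muc3 over the same libraries, so their fall follows in part from that choice. Muc13 was most like Tmem127 (0.93), Ptgr2 (0.93), the brush border protease Mep1a (0.93), Rell1 (0.92) and Pttg1ip (0.91). Muc2 was most like Eif2ak3, the endoplasmic reticulum stress kinase PERK (0.94), Ghdc (0.91), Acat3 (0.90), the endoplasmic reticulum chaperone Hyou1 (0.89) and Llgl1 (0.89). Of the Muc2 set Hyou1 was lower under DSS in the mean of genotypes (-0.40, edgeR adjusted p = 0.00922). Muc4 was most like Stc2 (0.90), Ttc39a (0.88), Myo5c (0.88), Arc (0.87) and Dst (0.87). Muc1, at its low counts, reached at most 0.74 (Banp).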

How the data were processed

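The deposited table holds whole-number read counts per gene symbol, 1 column a library, made by the authors. Total RNA was made into stranded mRNA libraries and read as 150-base pairs, per the labels' protocols. Tools listed in the submitters' processing notes include HISAT2 2.1.0 and, among others, StringTie 2.1.3b, with GRCm38 and mm10 as builds. The annotation, strand setting and handling of multiply mapped reads are not given in the sources used here.

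Counts were tested in R 4.3.3 with edgeR 4.0.16 (filterByExpr, TMM, robust quasi-likelihood fit of all 18 libraries with 1 mean per group). P-values were adjusted by Benjamini-Hochberg within each comparison. The standard error is the absolute log2 fold change over the square root of F. DESeq2 1.42.0 and limma 3.58.1 were alternatives, and the fit was tested on simulated data. P-values measure the spread between these animals, labelled as biological replicates. All pairs of libraries in a group differed beyond sampling noise.

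Members and gene lists were chosen with earlier results of these data known. Named are all members, the 5 genes most like each member (for Muc1 only the first) and neighbouring genes. Of the related gene lists, up to 6 called genes per list in the mean of genotypes are named by smallest p. Zg16 and Ang4 were added after their values were seen. Called genes of the marker lists and of the other comparisons are named only in part, so a gene not named may still have been called. Of 45777 symbols 40686 matched RefSeq, which gave positions and promoters (GRCm38.p6), and GENCODE M21 gave coding sequences. Dbp and Arntl were chosen after the data were seen. The value of 1 marker gene is not reported here.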

Additional observations from a re-analysis of the deposited data

How the results depend on the processing

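Member counts are given as edgeR called them first. For DSS averaged over genotypes (2), upper-quartile factors gave 1 and pan-epithelial scaling 1, each losing Muc13. For DSS in WT (1), DESeq2 gave 3, limma voom 2, and pan-epithelial scaling, a fit of the WT groups alone and leaving out WT water B with WT DSS C (chosen after seeing the data) gave 0 each. For DSS in LAO1KO (0), DESeq2 gave 2, limma voom 3 and no filter 1. For DSS in DKO (0), DESeq2 and limma voom gave 1 each. For LAO1KO against WT under water (0), both gave 1, and for DKO against WT under water (0), DESeq2 gave 1. For the interactions (0), DESeq2 gave 1 for LAO1KO and 2 for DKO, and limma voom 2 for LAO1KO. Without 1 library the counts ran from 1 to 2 for the mean of genotypes, 0 to 2 in WT, and 0 to 1 in LAO1KO, for either knockout against WT under water and for the DKO interaction. Over all tested genes those fits called 1928 to 3551 for the mean of genotypes, 777 to 2702 in WT and 1 to 346 in LAO1KO. Under water they called 5 to 105 for LAO1KO against WT and 30 to 387 for DKO against WT. For the DKO interaction they called 0 to 148. Shares of all genes called by DESeq2, limma voom and the unfiltered fit are not given here. Extra member calls by them are thus not read as results about the mucins. Limma voom gave 3 for the mean of genotypes, adding Muc2. Without 1 library, Muc2 in DKO ran from -0.0111 (without DKO DSS A, where the sign turned) to 0.25, and the mean Muc4 response from -0.00857 (without WT DSS B, where it turned) to 0.25. The causes were not tested.

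With the replicate letter as a block, Muc3 averaged over genotypes was -0.77 and Muc13 -0.26, and no member call changed. The letters are not stated to pair animals, and the correlations of same-letter deviations ran from -0.30 to 0.26, with all 3 WT pairs above 0.1; Muc2 in WT under the block was -0.92 (adjusted p = 0.0125). Depth limits Muc1 and Muc20. Per kilobase, the ratio of Muc2 to the membrane mucins was 0.345 in WT water and 0.253 in WT DSS, on incomplete gene models.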
